A study of Mus musculus with 14 samples.

Results

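4T1 is a mouse mammary tumor cell line. RNA from 14 cultures had been hybridised singly to Affymetrix Mouse Gene 1.0 ST arrays. Here 5 cultures with little Esrp1 transcript were set against 6 cultures with much Esrp1 and much Cldn7 transcript, out of 14 in all. The cultures were chosen by measured values, not by treatment. A sample was placed in the first group when its log2 intensity of Esrp1 was below 8 and in the second when both Esrp1 and Cldn7 were above 9, using for each gene the probe set with the highest mean. The 3 samples that met neither condition had Esrp1 above 9 and Cldn7 below 9.

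All samples were 4T1 cells carrying a lentiviral construct and selected as transduced cultures. The over-expression arm held 3 samples with human CNOT7 cDNA behind a murine Pol2 promoter and 3 with the vector control, in cells selected with blasticidin. The knockdown arm held 2 samples with the hairpin sh74, 3 with the hairpin sh75 and 3 with the scrambled hairpin shScramble, in cells selected with puromycin. The hairpins sh74 and sh75 target Cnot7. CNOT7 is a deadenylase, an enzyme that shortens the poly(A) tails of mRNAs within the CCR4-NOT complex. The series design calls the samples of a treatment biological replicates without saying whether they came from separate transductions or cultures, so the spread between them may be in part technical.

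Epithelial cells are held together by tight junctions, adherens junctions and desmosomes, and they sort membrane proteins to apical and basolateral surfaces. In an epithelial to mesenchymal transition (EMT) these assemblies are lost to a greater or lesser degree, vimentin replaces or joins the keratins, and zinc finger repressors of the ZEB and SNAIL families bind short E-box sequences at promoters of epithelial genes. ESRP1 and ESRP2 are RNA-binding proteins that set the epithelial pattern of exon use, for example in the receptor Fgfr2 and in Cd44. Tumor cells often take up intermediate forms, in which genes of both states are expressed together.

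The 5 cultures with low Esrp1 were CNOT7 over-expression replicate 3, sh74 replicate 1, sh75 replicates 2 and 3 and shScramble replicate 3. They are called Esrp1-low here, and their values are listed below in that order. The 6 Esrp1/Cldn7-high cultures were vector control replicate 2, CNOT7 over-expression replicate 1, sh74 replicate 2, sh75 replicate 1 and shScramble replicates 1 and 2. The log2 intensity of Esrp1 was 5.42, 5.65, 6.50, 6.49 and 5.21 in the Esrp1-low cultures. In the other group it ran from 10.56 through a median of 10.70 to 11.01. The log2 intensity of Cldn7, a claudin of epithelial junctions, was 5.94, 5.78, 5.85, 6.79 and 5.83 against 10.08 to 10.92. These values chose the samples and are given as a description only. Closest to the limits, Esrp1 was 6.50 just below 8 and 9.73 just above 9, while Cldn7 was 10.08 just above 9 and 7.84 just below it.

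Both states occurred in 4 of the 5 treatments. Of the 5 Esrp1-low cultures, 3 carried a Cnot7 hairpin, and of the 6 Esrp1/Cldn7-high cultures, 2 did (two-sided Fisher's exact test, p = 0.567, where 0.00216 was the smallest p the margins allow). Across all 5 treatments, a two-sided exact permutation test over 462 assignments of the states gave p = 1.0, where 0.0108 was the smallest p allowed. With samples this few, these values do not show that treatment and state were unrelated. CNOT7 over-expression, sh74, sh75 and shScramble had cultures in both states, while vector control had none that was Esrp1-low. The labels end each sample title in a number whose meaning is not given. Of the 5 Esrp1-low cultures, 4 carried title number 5 and 1 carried title number 1, and no number occurred in both states. State and title number therefore cannot be told apart in the cultures compared. Of the samples in neither group, vector control replicates 1 and 3 carried numbers 1 and 7, and CNOT7 over-expression replicate 2 carried number 5. Their Esrp1 was 10.08, 10.01 and 9.73, so numbers 1 and 5 each also held a culture with Esrp1 above 9.

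Cnot7 itself was 10.08, 8.71, 8.51, 8.07 and 10.20 in the Esrp1-low cultures and 7.52 to 10.64 in the Esrp1/Cldn7-high ones. The groups overlapped, and the low values belonged to Cnot7 hairpin samples in both. The difference of means was −0.68 (log2), and it was −0.09 with treatment as a term in a linear model. The array's mouse probes need not detect the human cDNA, and CNOT7 over-expression replicates 1, 2 and 3 read 10.64, 10.02 and 10.08.

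The markers went only partly with a mesenchymal label. Vim, the intermediate filament of mesenchymal cells, was 13.01, 13.06, 13.02, 12.72 and 12.81 in the Esrp1-low cultures against 10.08 to 12.19 with a median of 11.29, a difference of 1.76. Zeb2, a repressor of epithelial genes, was 8.36, 8.62, 8.54, 8.15 and 7.94 against 6.16 to 6.66 with a median of 6.43, a difference of 1.93. For both genes every Esrp1-low culture lay above every Esrp1/Cldn7-high culture. Even so, Vim was bright in the Esrp1/Cldn7-high cultures too.

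Other genes that mark epithelial and mesenchymal cells were mixed. As given further below, Epcam (−2.08), Krt14 (−1.29) and Krt19 (−0.80) were lower in Esrp1-low cultures and S100a4 (1.33) higher, all without overlap. Those that follow here were little different between the groups or unlike a mesenchymal cell. Cdh1, which encodes E-cadherin, was 10.66, 10.28, 10.77, 10.65 and 10.68, a lower but still bright level against 11.20 to 11.43. Krt8 and Krt18, the paired keratins of simple epithelia, differed by −0.06 and −0.07, and Krt7 by −0.12, with overlapping samples. N-cadherin (Cdh2) was dim in both groups at 4.06 ± 0.04 (SD, n = 5) and 4.12 ± 0.06 (SD, n = 6). Fn1, encoding fibronectin, was bright in both at 12.52 ± 0.28 (SD, n = 5) and 12.37 ± 0.14 (SD, n = 6). The groups are therefore named here by the genes that chose them.

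**Figure D1:**
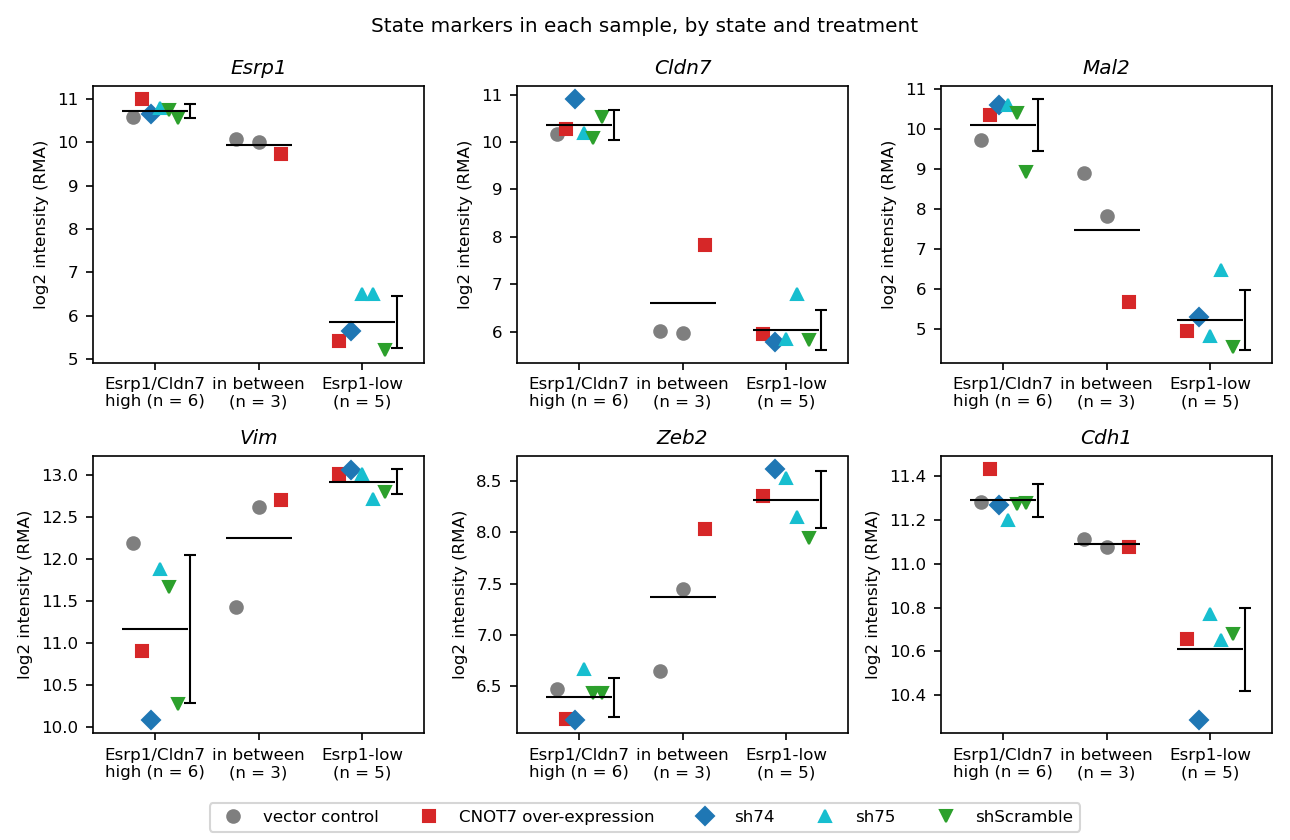
Log2 intensity (RMA values, vertical axes) of 6 genes in each of the 14 samples, set out by state and coloured by treatment; horizontal lines are means and bars are SDs of the 2 compared states. Esrp1 and Cldn7 chose the groups, Mal2, Vim and Zeb2 separate them without overlap, and Cdh1 stays above 10 in every sample.

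Because the contrast between states is the one that chose the samples, no test across genes was made, and the numbers below are sizes, spreads and overlaps. Cultures were first compared pair by pair over all genes. Among 23 pairs of cultures with the same state and another treatment, the median number of genes at least 2-fold apart was 318. Among 6 pairs with the same treatment and the other state it was 405.5. Pairs that shared neither had a median of 530.5 over 24 pairs, and the 2 pairs that shared both had 173.5. These pairs share samples, so the medians have no independent spread. No pair of cultures in different states shared a title number, so state was not separated from it here. Among Esrp1-low cultures, pairs sharing a title number differed at 134 to 326 genes. Pairs with sh74 replicate 1, which had another title number, differed at 304 to 452. Among Esrp1/Cldn7-high cultures, pairs sharing a title number differed at 332 to 461 and the other pairs at 134 to 451. Which of state and title number these counts follow was not tested.

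Between the group means, 61 of 21789 probe sets with a single gene symbol were at least 2-fold higher in Esrp1-low cultures with no overlap of samples, which is 0.28% of those compared. A further 74, or 0.34%, were at least 2-fold lower. Taken as 1 probe set a gene, this was 60 of 19938 genes higher (0.301%) and 73 lower (0.366%), the latter with Esrp1 and Cldn7 among them. Without regard to size, 451 genes lay higher without overlap (2.26%) and 394 lower (1.98%). The rule used this contrast, so these shares are a backdrop to the counts below and nothing is read from them. The median difference over all genes was 0.00.

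**Figure D2:**
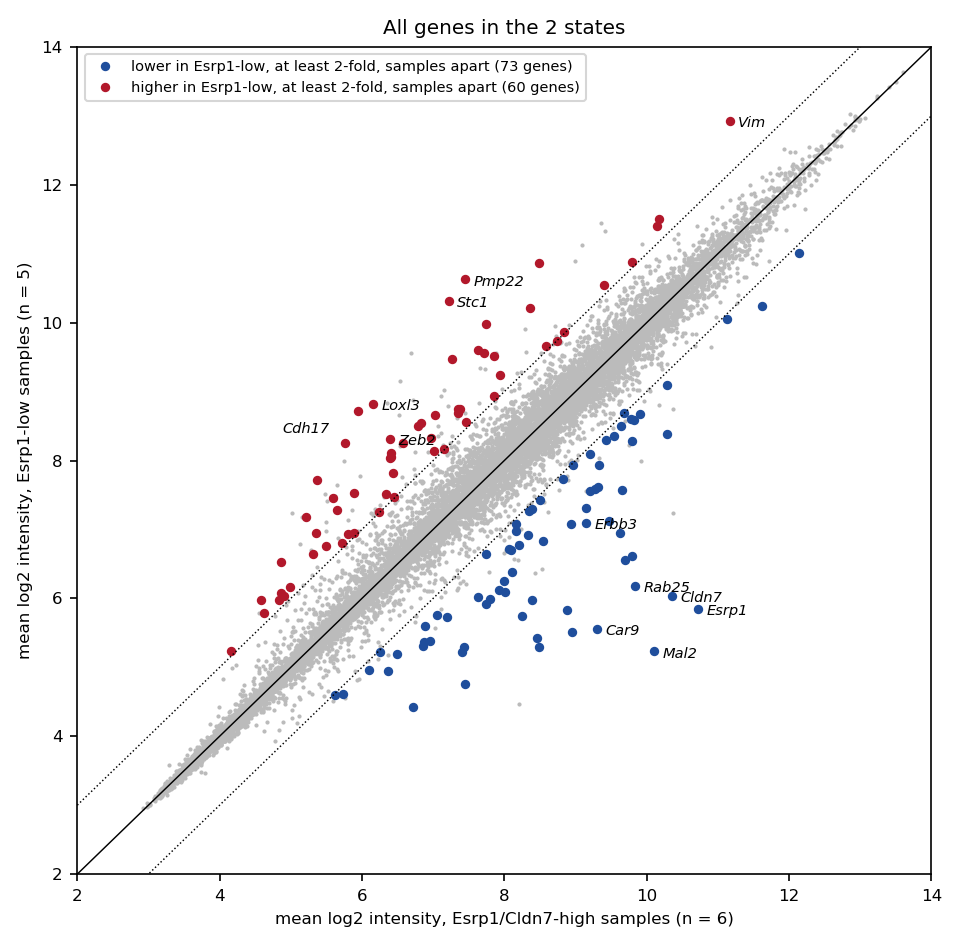
Mean log2 intensity of 19938 genes in the 6 Esrp1/Cldn7-high samples (horizontal axis) and the 5 Esrp1-low samples (vertical axis), with lines for equal level and 2-fold differences. The 73 blue genes were lower and the 60 red genes higher in Esrp1-low samples by at least 2-fold with no overlap; the genes furthest below the line are Mal2, Esrp1 and Cldn7.

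Several of the genes furthest down in Esrp1-low cultures serve membrane sorting in polarized cells. Mal2, a proteolipid of the transcytotic route to the apical surface, was 4.96, 5.31, 4.84, 6.48 and 4.57, against 8.94 to 10.61 with a median of 10.39. The groups were far apart, with a difference of −4.88. Of the Esrp1-low values, 2 lay below 4.91, the 90th percentile of olfactory receptor probe sets, which serve here as a gauge of background. With values raised to that level the difference was −4.79. Rab25, a GTPase of apical recycling endosomes, was 6.22, 6.03, 5.99, 6.58 and 6.10 against 9.65 to 9.96, a difference of −3.65. It was also one of the least variable, with an SD of 0.24 in Esrp1-low and 0.11 in Esrp1/Cldn7-high cultures. Ap1m2, the medium subunit of the epithelial AP-1B adaptor that sorts cargo to the basolateral membrane, had a median of 5.53 and a highest value of 5.89 in Esrp1-low cultures against 8.57 to 9.34, a difference of −3.44. Mal, a raft proteolipid related to Mal2, differed by −3.14.

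Of 23 measured genes of epithelial polarity, surface and trafficking, 9 were lower without overlap, 7 of them by at least 2-fold. Over all genes these shares were 1.98% and 0.366%. The median difference of the 23 was −0.62. Epcam, the epithelial adhesion molecule, is named here after its values were seen. It was 7.71, 5.98, 7.85, 7.89 and 8.41 against 9.26 to 10.01, a difference of −2.08, so sh74 replicate 1 had much the lowest level. Going the other way in this list was Tspan15, a tetraspanin that partners the protease ADAM10, at 8.50, 7.05, 8.36, 7.56 and 7.13 against 5.09 to 5.51. Its difference was 2.35, and it was the only list member that was higher without overlap. In bulk RNA of this kind, fewer cells of a type and less RNA per cell cannot be told apart.

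Claudins differed unequally. Cldn3 was 6.51, 6.35, 6.41, 7.24 and 6.57 against 8.71 to 10.28 with a median of 10.04, a difference of −3.17. Cldn4 was 10.73, 9.49, 10.41, 10.26 and 10.34 against 11.44 to 11.85, a difference of −1.37 that left it bright in both groups. Marveld3, a tetraspan protein of tight junctions, differed by −1.62, and Cgn, which encodes cingulin on their cytoplasmic face, was 7.08 to 8.27 against 8.54 to 9.03. Of 18 tight junction genes 7 were lower without overlap, Cldn7 included, and none was higher. The share of all genes lower without overlap was 1.98%. The scaffold gene Tjp1 differed by 0.05 and Ocln, for occludin, by −0.54, both with overlapping samples.

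Adherens junction and desmosome genes differed by smaller amounts. Of 19 measured, 6 were lower without overlap, but only Pkp2 by at least 2-fold. Over all genes, 1.98% were lower without overlap and 0.366% also by at least 2-fold. Pkp2, a desmosomal plaque protein, was 9.19, 7.59, 8.65, 8.70 and 8.86 against 9.59 to 10.05, a difference of −1.19. Perp, a tetraspan protein of desmosomes, differed by −0.73, Cdh1 by −0.68 and Nectin1, an adhesion molecule of adherens junctions, by −0.48. The catenin genes Ctnnb1 and Ctnna1 differed by 0.31 and 0.36 with overlap. Of 13 keratins, the basal keratin Krt14 (−1.29) and the simple keratin Krt19 (−0.80) were lower without overlap. The 4 connexins measured overlapped.

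**Figure D3:**
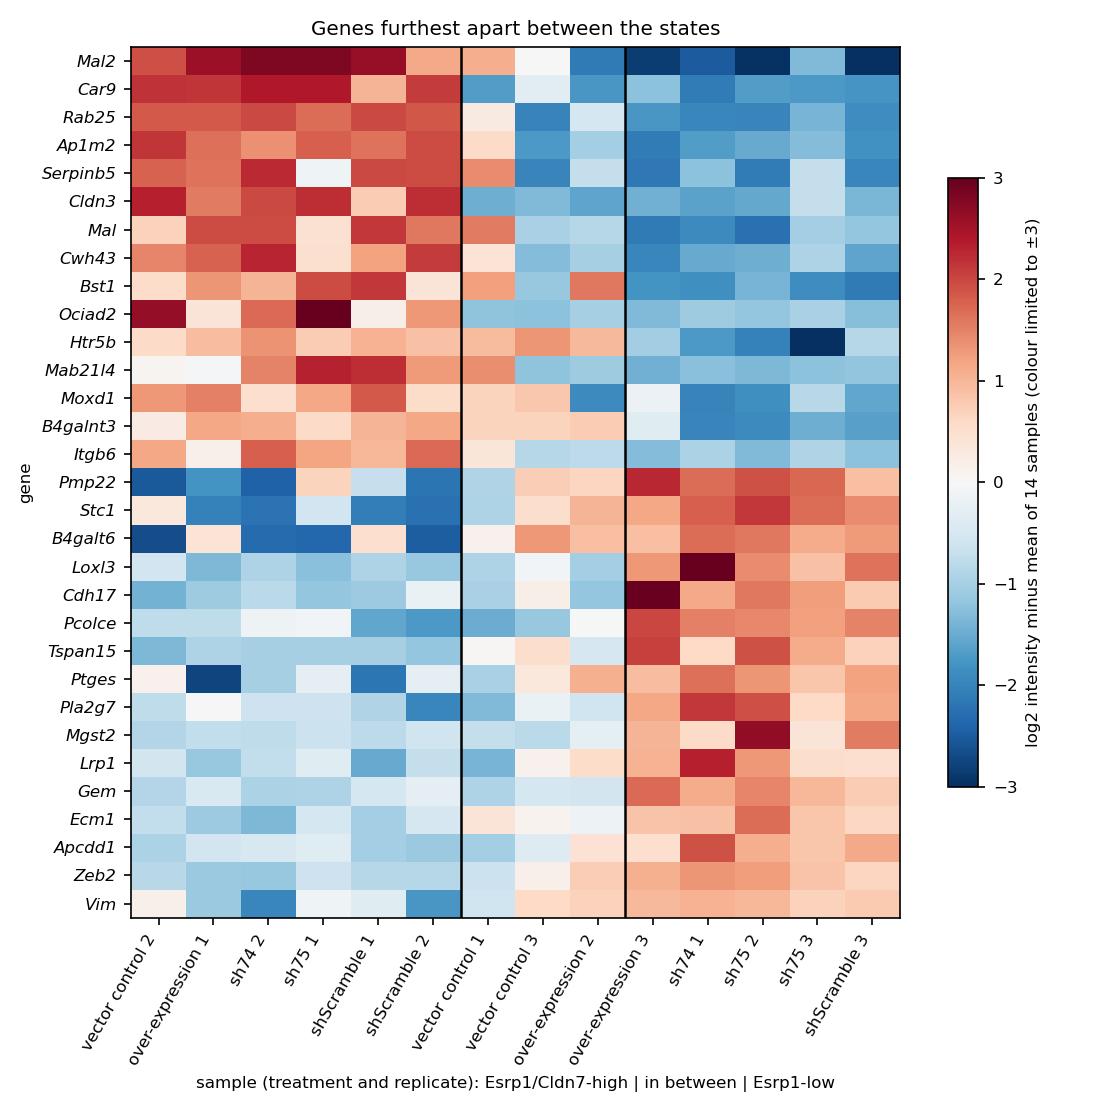
Log2 intensity minus the mean of the 14 samples (colour, limited to ±3) for the 15 genes furthest down, the 15 furthest up (Zeb2 among them) and Vim, with samples in columns by state. Esrp1-low columns are blue in the upper block and red in the lower one; the 3 samples in between resemble one state for some genes and the other for others.

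Serpinb5, the serpin maspin, was 4.77, 5.69, 4.82, 6.202 and 4.97 against 6.78 to 9.15 with a median of 8.77, a difference of −3.19. Its lowest Esrp1/Cldn7-high value came from sh75 replicate 1. Car9, a cell-surface carbonic anhydrase known as a target of hypoxia signaling, was 6.03, 5.17, 5.58, 5.53 and 5.50 against 8.28 to 9.67, a difference of −3.74. Of 24 hypoxia and glycolysis genes measured, Car9 and Adm were lower without overlap, both by at least 2-fold. Over all genes, 0.366% were lower in this way. The other 22 overlapped, and the median difference of the list was −0.02. Adm, encoding the peptide adrenomedullin, differed by −1.41, or by −0.92 with treatment as a term. Ldha and Slc2a1, a glycolytic enzyme and a glucose transporter, differed by 0.01 and 0.10 with overlap.

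The rest of this group had differences from −3.05 to −2.30. Cwh43, which remodels the lipid of GPI anchors, differed by −3.05, and Bst1, a GPI-anchored ectoenzyme, by −3.03. Ociad2 (−2.69), the serotonin receptor gene Htr5b (−2.68), Mab21l4 (−2.51), the monooxygenase Moxd1 (−2.42) and the glycosyltransferase B4galnt3 (−2.34) followed. Itgb6, the beta subunit of an integrin that binds fibronectin and activates latent TGF-beta, was 4.27, 4.62, 4.24, 4.65 and 4.32 against 5.71 to 7.36, a difference of −2.30. All 5 Esrp1-low values of Itgb6 and 4 of those of Ociad2 lay below the background gauge of 4.91. With values raised to that level the difference was −1.81 for Itgb6 and −2.53 for Ociad2, so these sizes rest in part on dim values. Serpinb5 had 2 such values and a difference of −3.15 when they were raised.

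Laminin chains of the epithelial basement membrane were lower as well. Lamb3 was 7.18, 5.92, 6.93, 7.11 and 8.23 against 8.27 to 9.40, a difference of −1.86 in which shScramble replicate 3 came close to the other group. Lama3, which joins the same laminin trimer, was 5.93, 6.15, 5.99, 5.84 and 6.06 against 7.003 to 8.17, a difference of −1.80. Among 22 integrin and laminin genes, 3 were lower and 2 higher without overlap. Over all genes these shares were 1.98% and 2.26%. Itgb7, a beta integrin chain best known from lymphocytes, differed by 0.85. Itga6 and Itgb4, which anchor epithelial cells to laminin, differed by 0.01 and −0.16 with overlap.

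The genes furthest up in Esrp1-low cultures did not share a single role. Pmp22, a tetraspan membrane protein of peripheral myelin, was 11.21, 10.60, 10.85, 10.65 and 9.83 against 6.43 to 9.61 with a median of 6.94, a difference of 3.18. The groups came close to each other, because sh75 replicate 1 read 9.61 while shScramble replicate 3 read 9.83. Stc1, the secreted glycoprotein stanniocalcin-1, was 9.84, 10.49, 10.80, 10.35 and 10.10 against 6.45 to 8.996, a difference of 3.10. B4galt6, a lactosylceramide synthase, was 8.32, 9.08, 8.99, 8.52 and 8.69 against 4.76 to 7.93, a difference of 2.78. Its Esrp1/Cldn7-high values fell into a low and a high cluster, with CNOT7 over-expression replicate 1 at 7.83 and shScramble replicate 1 at 7.93 and the other samples between 4.76 and 5.11.

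Loxl3, a lysyl oxidase-like enzyme that cross-links collagen, was 8.49, 10.17, 8.59, 8.07 and 8.81 against 5.84 to 6.61, a difference of 2.67. Pcolce, which enhances cleavage of procollagen, was 11.34, 10.84, 10.77, 10.57 and 10.81 against 7.60 to 9.24, a difference of 2.38. Ecm1, an extracellular matrix glycoprotein, differed by 1.85. Cdh17, a cadherin known from liver and intestine, was 9.67, 7.84, 8.29, 7.97 and 7.49 against 5.29 to 6.52, a difference of 2.50. Lrp1, an endocytic receptor for proteases and lipoproteins, was 9.52, 10.80, 9.77, 8.997 and 8.96 against 6.95 to 8.11, a difference of 1.98.

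Ptges, which makes prostaglandin E2, was 9.72, 10.44, 10.10, 9.62 and 9.99 against 6.04 to 8.92, a difference of 2.23. Pla2g7, which breaks down platelet-activating factor, differed by 2.22, and Mgst2, a microsomal glutathione transferase, by 1.98. Gem, a small GTPase, differed by 1.87 and Apcdd1, an inhibitor of Wnt signaling, by 1.84. For each of these genes the Esrp1-low samples lay wholly above the others.

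**Figure D4:**
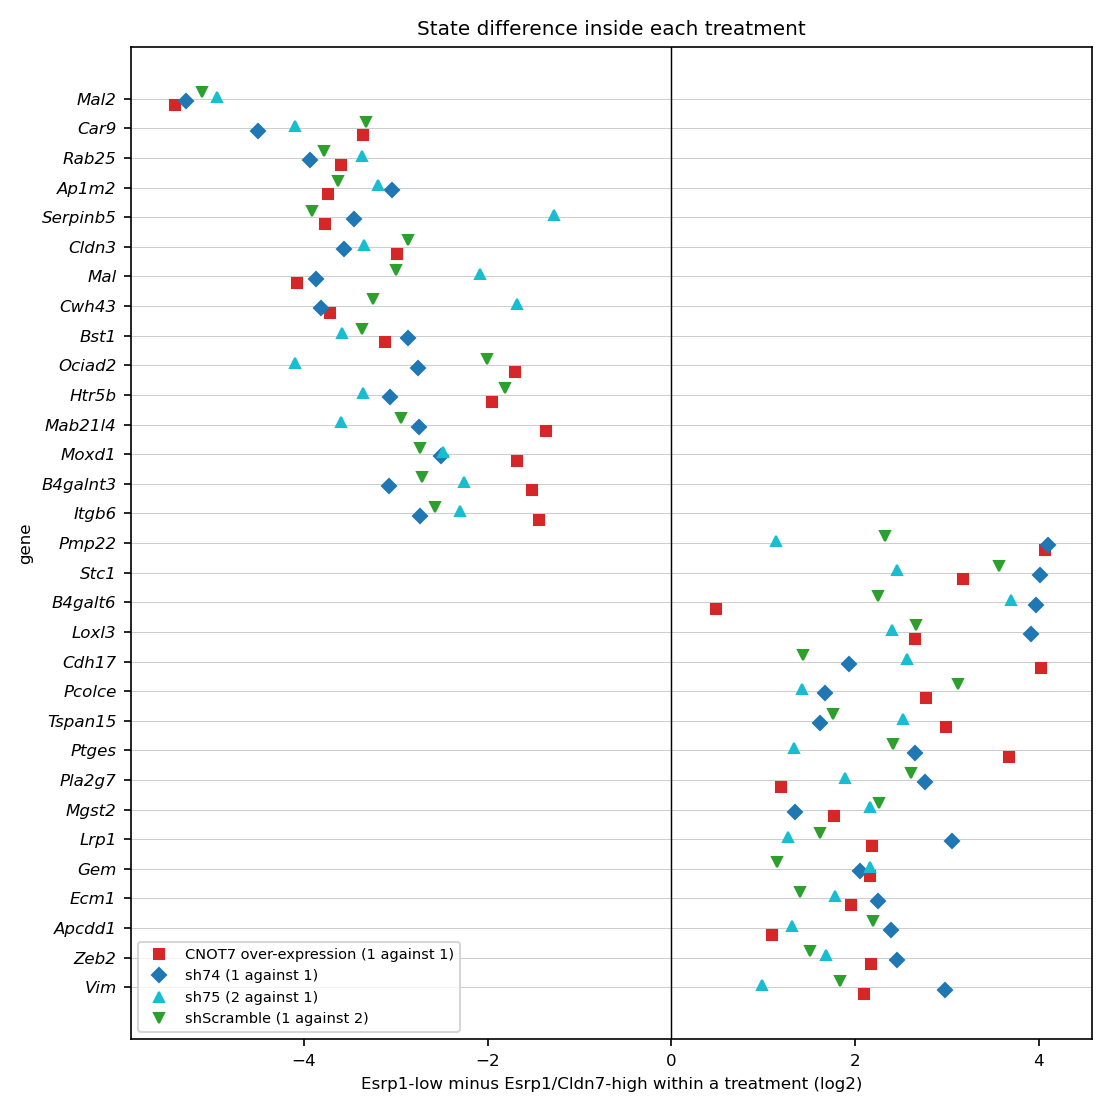
Difference between Esrp1-low and Esrp1/Cldn7-high samples (log2, horizontal axis) inside each of the 4 treatments that had both states, for the genes furthest apart and for Vim and Zeb2; each symbol rests on 2 or 3 samples. The sign is fixed by the absence of overlap, and the sizes vary: B4galt6 ranges from 0.49 to 3.97 and Mal2 only from −5.41 to −4.95.

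Each of 4 treatments held both states, so the sizes can be read inside a treatment. For Mal2 the difference was −5.41 under CNOT7 over-expression, −5.28 under sh74, −4.95 under sh75 and −5.11 under shScramble. Rab25 differed by −3.60, −3.93, −3.37 and −3.78, in the same order of treatments. Others were less even. Zeb2 differed by 2.18, 2.46, 1.68 and 1.51. Serpinb5 differed by −3.77, −3.45, −1.27 and −3.91, and Pmp22 by 4.07, 4.103, 1.14 and 2.33, with the smallest size in both cases under sh75. B4galt6 differed by 0.49 under CNOT7 over-expression and by 3.97, 3.70 and 2.25 under the other 3 treatments. These values rest on 2 or 3 samples each and carry no test.

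Most transcription factors overlapped between the states, and so did most genes of any kind. Of all genes, 2.26% were higher and 1.98% lower without overlap. Of 15 EMT transcription factors, 3 were higher and 1 lower without overlap, and only Zeb2 reached 2-fold. Zeb1 was dim in both groups at 5.52 ± 0.06 (SD, n = 5) and 5.34 ± 0.05 (SD, n = 6), without overlap. Tcf4, an E-box factor of the basic helix-loop-helix class, was 10.33, 10.59, 10.85, 10.40 and 10.43 against 9.27 to 10.19, a difference of 0.76. Twist1 was 8.37 to 8.69 against 7.07 to 8.43, a difference of 0.94 with a small overlap. Snai1 and Snai2 differed by 0.08 and −0.01 with overlap.

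Of 16 transcription factors of epithelial cells, 3 were lower without overlap and none by as much as 2-fold. The share of all genes lower without overlap was 1.98%. Elf3, an ETS factor of epithelia, was 7.32, 6.42, 7.45, 6.83 and 7.48 against 7.75 to 8.33, a difference of −0.97. Ovol1 and Grhl2, which restrain EMT in epithelia, differed by −0.62 and −0.37. Klf5 and Gata3 differed by 0.00 and 0.01 with overlap. Among 10 splicing regulators, Esrp2 was 8.30, 7.13, 7.93, 8.58 and 8.50 against 9.02 to 9.37, a difference of −1.11 beside the much larger one of Esrp1 that chose the samples. Rbfox2, which promotes mesenchymal splice forms, differed by 0.27 without overlap.

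**Figure D5:**
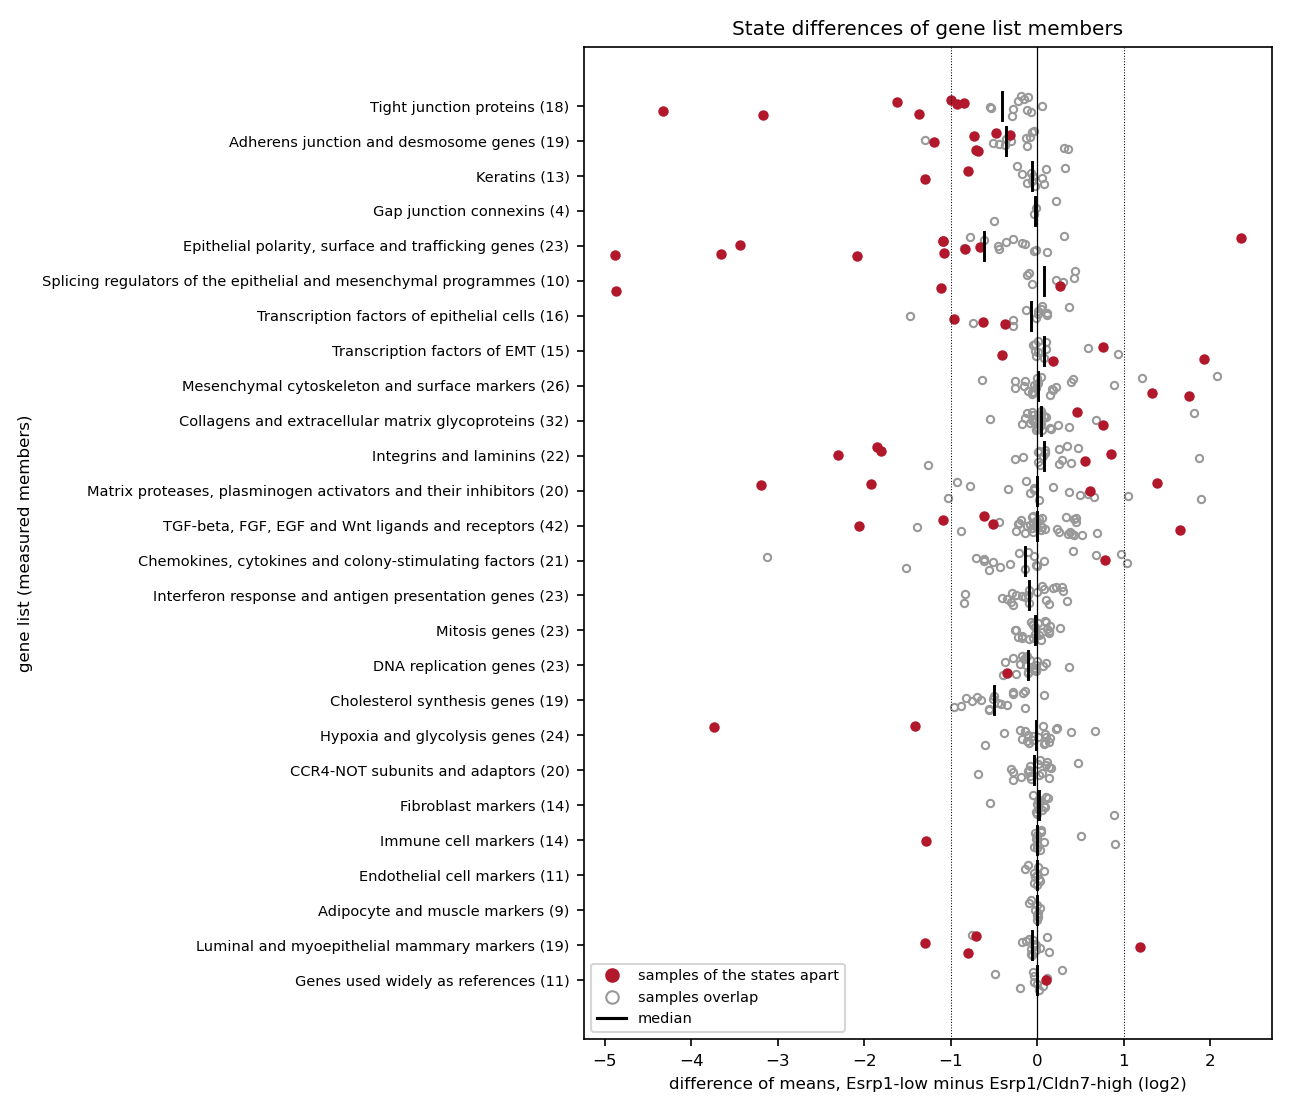
Difference of group means (log2, horizontal axis; Esrp1-low minus Esrp1/Cldn7-high) for every measured member of 26 gene lists, red where the samples of the states did not overlap and open where they did, with a black bar at each median. Medians are −0.41 for tight junction genes and −0.62 for polarity and trafficking genes, and lie near 0 for mesenchymal, collagen and fibroblast lists.

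Most mesenchymal and matrix genes overlapped, as did most genes of any kind. Of all genes, 2.26% were higher without overlap and 0.301% also by at least 2-fold. Of 26 mesenchymal cytoskeleton and surface markers, Vim and S100a4 were higher without overlap, both by at least 2-fold, and none was lower without overlap. The median difference was 0.01. S100a4, a calcium-binding protein associated with motility, was 11.30, 11.72, 11.77, 11.46 and 11.29 against 9.53 to 10.84, a difference of 1.33. Sparc, a matricellular protein named after its values were seen, was 11.12 to 11.67 against 5.81 to 11.12, a difference of 2.08 with overlap and an SD of 1.99 in Esrp1/Cldn7-high cultures. Of 32 collagens and matrix glycoproteins, 2 were higher without overlap, neither by 2-fold, and the median was 0.04. Col6a1, a chain of beaded-filament collagen, differed by 0.75, while Col1a1 and Col3a1, the fibrillar collagens, differed by −0.02 and 0.01.

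Of 20 matrix proteases, plasminogen activators and their inhibitors, 2 were higher and 2 lower without overlap and 16 overlapped. Over all genes, 2.26% were higher and 1.98% lower without overlap. The median difference of the list was −0.01. Adam19 was 9.08, 9.32, 8.31, 8.31 and 8.75 against 6.77 to 7.99, a difference of 1.38, and Adam12, another membrane metalloprotease, was 7.41, 5.35, 5.34, 5.69 and 6.65 against 7.41 to 8.69, a difference of −1.92. For Adam12, CNOT7 over-expression replicate 3 reached the edge of the other group. Timp2, a metalloprotease inhibitor, differed by 0.61. Mmp3, which degrades matrix and is named after its values were seen, was 9.66 to 11.97 against 8.15 to 9.69, a difference of 1.90 with overlap.

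Growth factor receptor genes differed in both directions. Erbb3, the neuregulin receptor of epithelial cells, was 7.23, 6.80, 7.32, 7.202 and 6.89 against 8.78 to 9.34, a difference of −2.06 with an SD of 0.23 in each group. Fgfr1, an FGF receptor, was 7.87, 7.09, 8.97, 8.10 and 8.22 against 6.21 to 6.77, a difference of 1.65. The ligand Wnt10a differed by −1.09 and Igfbp7, a secreted IGF-binding protein, by −0.62. Of 42 ligands and receptors of the TGF-beta, FGF, EGF and Wnt families, 4 were lower and 1 higher without overlap. Over all genes these shares were 1.98% and 2.26%. Tgfb1, the ligand most used to induce EMT, differed by 0.51 with overlap.

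Over all genes, 2.26% were higher and 1.98% lower without overlap. Of 21 chemokines, cytokines and colony-stimulating factors only Csf1, the macrophage growth factor, was apart. Csf1 was 10.64, 10.32, 9.90, 10.14 and 9.93 against 8.95 to 9.89, a difference of 0.79. Its receptor Csf1r was 5.61, 5.68, 5.83, 6.01 and 5.68 against 6.52 to 7.44, a difference of −1.29 in the opposite direction. Il1a, an alarmin cytokine named after its values were seen, had a difference of −3.13 but spanned 4.77 to 11.27 in Esrp1-low and 6.52 to 12.44 in Esrp1/Cldn7-high cultures. That difference was well within the spread.

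Proliferation and metabolism genes overlapped with few exceptions. Of all genes, 2.26% were higher and 1.98% lower without overlap. Little can therefore be read from lists of this size that hold 1 such gene or none. None of 23 mitosis genes, 23 interferon and antigen presentation genes, 20 CCR4-NOT subunits and adaptors or 19 cholesterol synthesis genes was apart. Of the cholesterol genes, 18 of 19 had a negative difference, with a median of −0.50. Among 23 replication genes Mcm5, a helicase subunit, was lower (−0.35). Of 11 reference genes Ywhaz was higher by 0.10 without overlap, with SDs of 0.02 and 0.03, which shows that absence of overlap alone can mark a very small difference. Of 19 luminal and myoepithelial markers, the milk protein gene Csn3 was higher (1.19) and Krt14, Krt19 and Cdh3 were lower.

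Markers of other cell types were at about the same level in both groups, but many were dim. For 6 of 14 fibroblast and 7 of 14 immune markers even the higher group mean lay below the background gauge of 4.91. Likeness of the list means is therefore in part likeness of background. Over all genes, 2.26% were higher and 1.98% lower without overlap. Mean log2 intensity over 14 fibroblast markers was 5.22 to 5.29 in Esrp1-low and 5.15 to 5.30 in Esrp1/Cldn7-high cultures, and no member was apart. Over 14 immune markers it was 5.28 to 5.41 and 5.18 to 5.43, with Csf1r the only member apart and Ptprc, the common leukocyte antigen, at 4.61 ± 0.06 (SD, n = 5) and 4.58 ± 0.08 (SD, n = 6). Neither 11 endothelial nor 9 adipocyte and muscle markers held a member that was apart. The fibroblast genes Dcn and Lum read below 4.91 in both groups, with means of 3.88 and 3.80 for Dcn and 3.39 and 3.31 for Lum.

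The promoters of the genes apart between the states were read for CACCTG, the E-box letters that ZEB and SNAIL factors are known to bind, on both strands (CAGGTG on the other). The 250 bases upstream of annotated starts were searched in RefSeq promoters of GRCm38.p6. Of the 73 lower genes 54 had promoters in the table, in 65 windows, and 29 of these windows (44.6%) held the motif, in 28 genes. The 73 genes come from the contrast that chose the samples and include the choosing genes Esrp1 and Cldn7. For Cldn7, 1 of 2 windows held the motif and is in this share. Of the 60 higher genes 42 had promoters, again 65 windows, and 11 (16.9%) held it. Among all 32851 promoters the share was 17.2%, and among the 19177 of genes on the array 16.9%. Other E-boxes were counted in the same way, with letters that differ so that no match counts for both. CAGCTG was in 16.9% of lower-gene, 12.3% of higher-gene and 13.0% of all windows, and CACGTG in 6.15%, 6.15% and 6.02%. These shares carry no test, and whether ZEB or SNAIL factors account for the lower genes was not tested. Median GC content was 58.4% in both gene groups, 56.8% over promoters of genes on the array and 52.4% over all promoters. Of the 15 genes furthest down, 12 had promoters in the table: 7 held the motif, and Cldn3, Mal, Cwh43, Ociad2 and Mab21l4 did not. Among other lower genes described above, no match was found for Krt14 and Adm.

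The following stretches show the motif in those 7 genes, in Cldn7, and in the junction gene Cldn4 and the laminin gene Lamb3 described above. The E-box is in capitals, the strand is that of the gene and the coordinates are chromosome positions of the stretch shown. Ap1m2 held 4 copies within 93 bases directly upstream, on the minus strand at chr9:21312334-21312426. Rab25 held 2 at chr3:88548315-88548355 (minus strand), and Cldn7, one of the choosing genes, held 2 at chr11:69965312-69965381 (plus strand) in 1 of its promoters. The others held 1 each: Car9 at chr4:43506813-43506842 (plus), Serpinb5 at chr1:106861140-106861169 (plus), Itgb6 at chr2:60673736-60673765 (minus, in 1 of its 2 promoters), Moxd1 at chr10:24223427-24223456 (plus), Lamb3 at chr1:193302225-193302242 (plus, in 1 of its 2 promoters), B4galnt3 at chr6:120294961-120294990 (minus) and Cldn4 at chr5:134946935-134946960 (minus).
Ap1m2: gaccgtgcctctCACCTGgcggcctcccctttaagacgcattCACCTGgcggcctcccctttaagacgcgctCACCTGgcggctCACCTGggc
Rab25: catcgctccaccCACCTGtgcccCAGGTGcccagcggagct
Cldn7: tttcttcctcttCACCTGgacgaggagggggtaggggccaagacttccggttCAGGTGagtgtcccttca
Car9: tgcctatgaacaCACCTGcccctcacccca
Serpinb5: tgggtgtggtcaCAGGTGagcacagctccc
Itgb6: ccgggcactgtaCACCTGacttccttataa
Moxd1: acacggtggcagCAGGTGgatgcctgggga
B4galnt3: gggggcggggccCACCTGcgcctgggggcg
Lamb3: cctctgggagctCACCTG
Cldn4: ctttaactgcagCACCTGtggccgcc

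A match of these letters is a description of the sequence and does not show that a factor binds there. Genes higher in Esrp1-low cultures held it too, among them Adam19, in more than 1 of its listed promoters, and Pcolce, shown here for contrast.
Adam19: ctgggtgtccttCACCTGagtcagcgatgc
Pcolce: gggtccagcctgCACCTGaaagtctccagc
The Adam19 stretch lies at chr11:46055837-46055866 (plus strand) and that of Pcolce at chr5:137611625-137611654 (minus strand).

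The miR-200 family, which is known to restrain Zeb1 and Zeb2 mRNA in epithelial cells, was looked at after the values were seen. The mature 3p forms share 2 seeds, bases 2 to 8, given in capitals in these RefSeq sequences, and they are shown to group the hairpins below.
miR-200b-3p: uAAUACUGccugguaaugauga
miR-200c-3p: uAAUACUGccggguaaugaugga
miR-429-3p: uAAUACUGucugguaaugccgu
miR-200a-3p: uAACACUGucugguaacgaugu
miR-141-3p: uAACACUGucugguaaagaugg
The array's hairpin probe sets were dim and do not measure the mature forms. In the group with seed AAUACUG, Mir200b was 4.50, 4.40, 4.58, 4.48 and 4.34 against 4.78 to 5.41, a difference of −0.59 without overlap. Mir200c differed by −0.38 with overlap, and a probe set that lists Mir429 beside other symbols by −0.20 without overlap. In the group with seed AACACUG, Mir200a differed by −0.11 and Mir141 by −0.18, both with overlap. Values of Mir200b were below 4.91 in every Esrp1-low culture and began at 4.78 in the other group, so its difference is at the edge of what these probes measure. The probe set with Mir429 read 3.64 to 3.73 in Esrp1-low and 3.83 to 3.97 in Esrp1/Cldn7-high cultures. All of these values were below 4.91.

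The 3 samples that met neither condition, vector control replicates 1 and 3 and CNOT7 over-expression replicate 2, resembled different states by gene. Cldn3 was 6.48, 6.62 and 6.36 and Ociad2 4.70, 4.68 and 4.91, at the Esrp1-low level, while Htr5b was 9.66, 10.02 and 9.68 and B4galnt3 9.26, 9.26 and 9.35, at the Esrp1/Cldn7-high level. Zeb2 was 6.64, 7.44 and 8.03, between and across the 2 groups.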

How the data were processed

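Total RNA of 14 4T1 cultures was measured on Mouse Gene 1.0 ST arrays. The authors deposited log2 values made with RMA, which corrects background, equalises the arrays by quantiles and summarises probes, and per the labels the oligo package was used; versions are not given in the sources used here. The values were used without further normalization: array medians over probe sets with 1 gene symbol were 6.31 to 6.38, and the number of arrays limits the precision. Of 35556 probe sets, 21789 had 1 gene symbol in the platform annotation (19938 genes), 1621 several and 12146 none. Each gene was read from its brightest probe set. The states follow from 2 of the measured genes, so their contrast carries no p-value: means, SDs and overlap were computed with Python 3.11.15, numpy 2.4.6 and pandas 2.3.3, and treatment by state was tested exactly with scipy 1.17.1. Named were Vim, Zeb2, Mal2, the 15 genes furthest apart each way without overlap and with the higher mean at least 6, and up to 4 such members of each of 26 lists, plus list members defining by not differing; exceptions are named as such. Members and lists were chosen with earlier results of these data known. The calculation was tested on simulated data. Alternatives left out samples, treatments or title numbers, added treatment as a term, set a floor, or changed the thresholds, the probe set or the centre. RefSeq promoters and microRNAs are of GRCm38.p6.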

Additional observations from a re-analysis of the deposited data

Results flagged for a closer look

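Of 130 groups of values examined (each named gene other than the choosing ones in each state), 6 held a sample set off from the others by Dixon's 95% limit, where chance gives about 1 in 20 groups. In Esrp1-low cultures, sh75 replicate 3 was high for Cldn3, at 7.24 against 6.57 for the nearest other sample. In Esrp1-low cultures also, sh75 replicate 2 was high for Ecm1, at 10.91 against 10.12, and sh74 replicate 1 was low for Cdh1, at 10.28 against 10.65. In Esrp1/Cldn7-high cultures, shScramble replicate 1 was low for Car9, at 8.28 against 9.36, and sh75 replicate 1 was low for Serpinb5, at 6.78 against 8.54. CNOT7 over-expression replicate 1 was high for Cdh1, at 11.43 against 11.28.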

How the results depend on the processing

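The 61 higher and 74 lower probe sets became 34 and 26 when the second group was every sample with Esrp1 above 9, 314 and 253 without samples of title number 5 (which leaves sh74 replicate 1 as the only Esrp1-low culture), and 208 and 159 with a 1.5-fold limit. Without the Cnot7 hairpin samples 104 were higher. Fewer samples leave less room for overlap, and a lower limit admits smaller differences. Leaving out 1 sample at a time gave 52 to 89 higher and 74 to 91 lower, and treatment as a term 55 and 71. Where the samples of a named gene had not overlapped, no difference changed sign. Leaving out samples, taking medians or setting a floor could not have reversed it, so little is read from this. Of the differences of named genes under all alternatives, 1058 moved by less than 1 SD and 48 by more. Of these, 25 came without title number 5, where among others Fgfr1 was 0.69 in place of 1.65, Itgb7 0.30 in place of 0.85, Nectin1 −0.98 in place of −0.48, Pkp2 −2.20 in place of −1.19, Esrp2 −2.07 in place of −1.11, Lamb3 −3.01 in place of −1.86, Lrp1 3.16 in place of 1.98 and Loxl3 4.02 in place of 2.67. With Esrp1 alone as the limit 15 moved, over 1.5 times for Cldn3 (−2.07 in place of −3.17), Krt19 (−0.42 in place of −0.80) and Csf1 (0.47 in place of 0.79). Without the Cnot7 hairpin samples 6 moved, over 1.5 times for Adam12 (−1.22 in place of −1.92), Cgn (−0.60, in place of −0.999) and Ovol1 (−0.40 in place of −0.62). With Esrp1 alone the exact p of treatment by state was 0.757 and that of the hairpins 0.266. No paired analysis was possible because no title number occurred in both states and replicate numbers only name samples.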

Other observations

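Other genes at least 2-fold apart, named after their values were seen, included further epithelial genes among those lower in Esrp1-low cultures. Sfn, the 14-3-3 sigma protein of epithelia, differed by −1.69, St14, the membrane protease matriptase, by −1.08, Grb7, an adaptor of ErbB receptors, by −1.13, and Jag1, a Notch ligand, by −1.13. Car2, a cytosolic carbonic anhydrase, differed by −2.18. Higher were Hpse, the heparan sulfate-cleaving heparanase (1.63), Slit2, a secreted guidance ligand (1.15), Rhoj, a small GTPase (1.64), Ccn3, a matricellular protein (1.34) and Sema5a, a semaphorin (1.64).

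Of 13767 probe sets with several symbols or none, 7 were higher and 5 lower by at least 2-fold without overlap.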
